A study of Mus musculus with 13 samples.

Results

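The compound-only regions are places in mouse embryonic fibroblasts where HA-tagged Myf6 was called in the presence of 3 small molecules and not in their absence. They were selected on the peak calls themselves: 12 peak lists (HA and IgG) on chromosomes 1 to 19 were merged wherever peaks shared at least 1 bp, and a region was kept if it was called in both +Myf6+F/R/C HA lists and in none of the other 10 (2 +Myf6 HA, 2 no-doxycycline HA and 6 IgG lists). The rule found 2763 of 70492 merged regions, or 3.92%. They were 18.6% (interval 17.96 to 19.22%) of the 14866 regions called in both +Myf6+F/R/C HA lists and in no control list, here termed +Myf6+F/R/C sites. Of the other +Myf6+F/R/C sites, 4495 (30.2%) had a peak in 1 of the 2 +Myf6 HA lists and 7608 (51.2%) had one in both, and these last are termed shared sites. Intervals are exact Clopper-Pearson intervals of 95% and cover counting error only, since regions of one library are not replicates.

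All cells came from a cross of 3 alleles, labelled Pax7-CreERT2, Rosa26-LSL-tdTomato and CAG-rtTA3, and carried a lentiviral Myf6 with 3 HA tags under a doxycycline-responsive TRE promoter, so every group, controls included, shares these alleles and this vector. The +Myf6+F/R/C cells received 2 µg/mL doxycycline with 5 µM Forskolin, 5 µM RepSox and 3 µM CHIR99021 for 24 h, the +Myf6 cells doxycycline alone, and the no-doxycycline cells neither, all in iMPC medium with bFGF. Each group had 2 HA and 2 IgG CUT&RUN libraries, and 1 further library of +Myf6+F/R/C cells was made with an antibody to H3K27me3. The Myf6 measured is overexpressed and tagged. The labels do not say whether replicates were separate cultures, and peak lists hold no expression with which to check the fibroblast label.

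Myf6, also called MRF4, is a basic helix-loop-helix factor of the family that drives skeletal muscle differentiation. These factors pair with E proteins and bind the short DNA element called the E-box. Forskolin activates adenylyl cyclase and so raises cAMP, RepSox blocks the type I receptor of TGF-β, a pathway that restrains myogenesis in cultured cells, and CHIR99021 inhibits the kinase GSK3 and so stabilises β-catenin, the effector of Wnt signalling. CUT&RUN releases the chromatin around an antibody with a tethered nuclease, and H3K27me3 is the histone mark laid down by Polycomb repressive complex 2.

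The HA libraries differed in depth. As mean fragments per 10 kb, recovered from the peak lists, depth was 61.9 and 40.9 in +Myf6+F/R/C replicates 1 and 2, against 42.4 and 30.6 in +Myf6 replicates 1 and 2. The no-doxycycline HA libraries had 30.6 and 23.7, and the IgG libraries 8.25 to 22.7. On chromosomes 1 to 19 the lists held 37811 and 31504 peaks in +Myf6+F/R/C cells and 28012 and 34566 in +Myf6 cells. The no-doxycycline HA lists held 2130 and 4138, and the IgG lists 410 to 1648. The deeper treatment is thus the one on which the compound-only regions were called, and depth and treatment cannot be told apart in these lists alone. Leaving out 1 of the 4 induced HA libraries drops a condition of the rule, so the number of compound-only regions could only stay or rise. It was 11201 without +Myf6+F/R/C replicate 1, 13907 without +Myf6+F/R/C replicate 2, 5060 without +Myf6 replicate 1 and 4972 without +Myf6 replicate 2.

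The strongest compound-only region lay on chromosome 15 (62468508 to 62469044, GRCm39). Its summit carried 33 HA fragments in +Myf6+F/R/C replicate 1 and 23 in replicate 2, where the authors' caller expected 2.26 and 1.43 from the surrounding 10 kb. The deposited fold enrichments were 10.4 and 9.89, and the 2 summits lay 19 bp apart. The second, on chromosome 4 (131626026 to 131626837), had summit pileups of 32 and 19 fragments over 1.38 and 1.15 expected, and the highest fold of any compound-only region in replicate 1, 13.9, with 9.29 in replicate 2. In the region on chromosome 9 (36827893 to 36828573) the pileups were 27 and 18, the folds 9.08 and 8.76, and the summits 4 bp apart. These regions stood well above the background of both +Myf6+F/R/C libraries and had no called peak in either +Myf6 library, where the lists give no value for them.

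Other leading regions were less sharply set off from their surroundings. On chromosome 13 (30401597 to 30402244) the pileups were 30 and 20 over 3.23 and 1.60 expected, with folds of 7.33 and 8.08. On chromosome 1 (90090129 to 90090747) they were 38 and 29 over 6.22 and 3.49 expected. That region had the most fragments of the 10 in replicate 2, but lower folds, 5.40 and 6.68, because its 10 kb window held more fragments. Its nearest +Myf6 peak was 1030 bp away and belonged to a shared site.

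The next 3 lay at very different distances from the peaks of cells without compounds. The region on chromosome 6 (144040556 to 144041067) had pileups of 30 and 23 and folds of 7.05 and 7.04. That on chromosome 1 (56684555 to 56685144) had pileups of 24 and 15, folds of 9.96 and 7.87, and its nearest +Myf6 peak at 39205 bp, the greatest such distance among the 10. That on chromosome 12 (100358483 to 100359134) had pileups of 28 and 20 and folds of 7.37 and 6.89. Its summits were 322 bp apart in the 2 replicates and a +Myf6 peak lay 649 bp away, so it combined the widest summit gap of the 10 with the shortest distance to a peak of cells without compounds. The last 2 were both on chromosome 1. One (150650203 to 150650816) had pileups of 26 and 23, and the other (179286123 to 179286702) had 39 and 16. Of the 10, the region at 179286123 had the pileups that differed most between replicates, with folds of 10.5 and 6.29, and was the only one with an H3K27me3 peak (fold 3.69, 6 fragments).

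**Figure D1:**
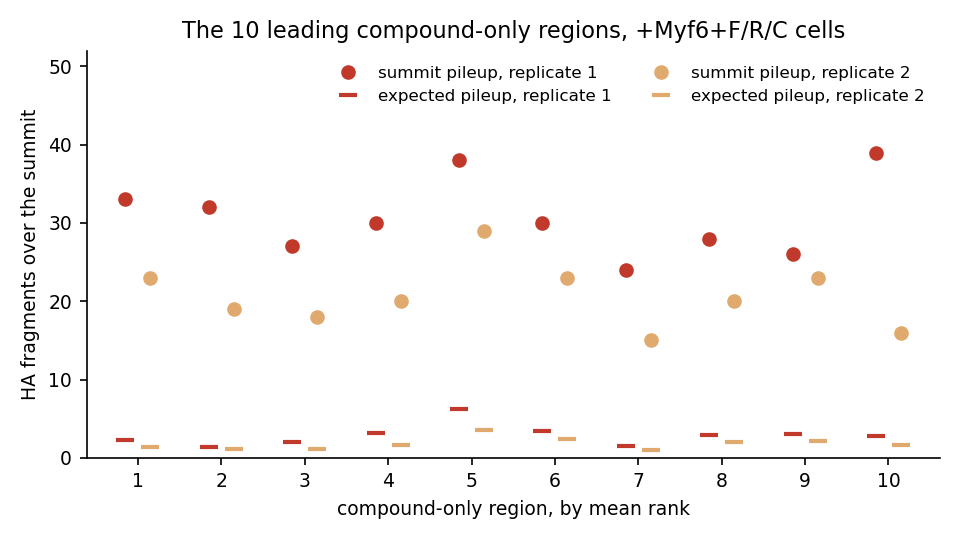
Summit pileup (circles) and expected pileup from the surrounding 10 kb (dashes), in HA fragments, of the 10 compound-only regions with the best mean rank in the 2 +Myf6+F/R/C HA lists, with replicate 1 in red and replicate 2 in orange. Pileups were 24 to 39 in replicate 1 and 15 to 29 in replicate 2, and were higher in replicate 1, the deeper library, in all 10. Any called peak lies above its expected pileup.

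Regions as strong as these were the exception. Over all 2763 compound-only regions, the lowest, median and highest summit pileups were 6, 12 and 41 fragments in +Myf6+F/R/C replicate 1 and 5, 10 and 35 in replicate 2. The fold enrichments were 2.58, 4.96 and 13.9 in replicate 1 and 2.63, 4.92 and 9.89 in replicate 2. At shared sites the median pileups in the same libraries were 18 and 14 and the median folds 5.93 and 5.55. Ranked by −log10 p within its list, the median compound-only region stood 56.6% of the way down the replicate 1 list and 56.1% down the replicate 2 list. The strongest 10% of the lists held 56 and 57 compound-only regions. With −log10 q required to reach 5 in each of the 2 lists, 512 (18.5%) remained, which were 8.44% of the +Myf6+F/R/C sites at that threshold. At 10 or more 10 remained, or 1.00% of 1001 sites.

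The share of sites that were compound-only was lower the stronger the site. When the +Myf6+F/R/C sites were ordered by their mean rank in the 2 lists and cut into deciles, 20 of 1487 in the strongest decile (1.34%) were compound-only, against 582 of 1487 in the weakest (39.1%), and the share was higher in each decile than in the one before. Shared sites ran the other way, with 89.1% of the strongest decile and 23.0% of the weakest. Sites with a peak in 1 of the 2 +Myf6 lists made up 9.55% of the strongest decile and 37.9% of the weakest. These values come from the lists used to choose the regions and are a description of them.

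**Figure D2:**
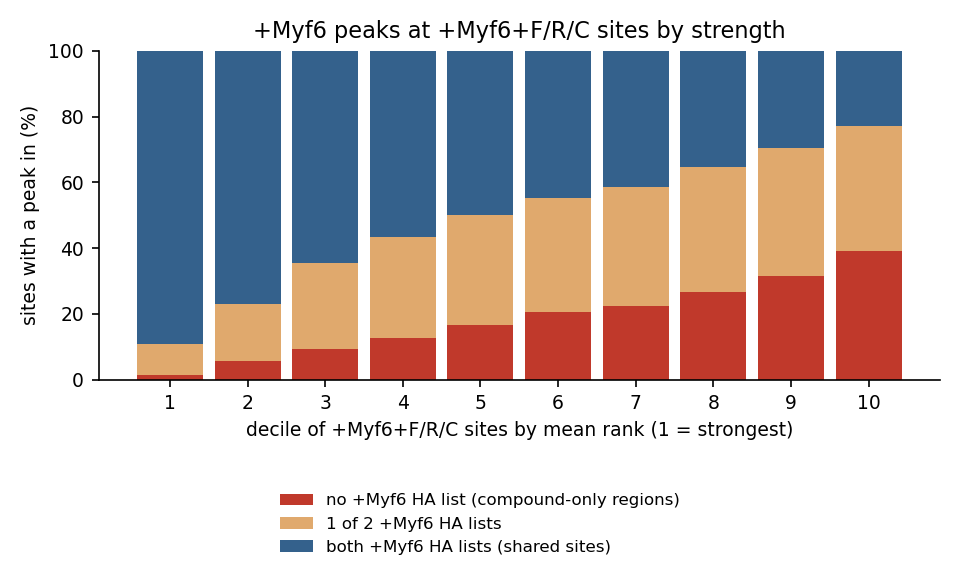
Share of the 14866 +Myf6+F/R/C sites (vertical axis, %) with a peak in no +Myf6 HA list (red, the compound-only regions), in 1 (orange) or in both (blue), by decile of mean rank in the 2 +Myf6+F/R/C HA lists. Compound-only regions made up 1.34% of the strongest decile and 39.1% of the weakest.

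Compound-only regions also lay where the local background of the HA libraries was lower. The median expected pileup at their summits was 1.49 times the mean of the library in +Myf6+F/R/C replicate 1 and 1.69 times in replicate 2, against 2.07 and 2.27 times at shared sites. The fragments of a peak itself also count in its 10 kb window. How much of the difference comes from them was not tested. The median width of the compound-only regions was 424 bp (172 to 1327 bp), against 656 bp for shared sites, whose footprints merge the peaks of more lists. Peaks were also narrower within a single list. Their median width was 312 bp, against 471 bp at shared sites, in +Myf6+F/R/C replicate 1 and 284 bp, against 428 bp, in replicate 2. The median region width was not smaller than in the mirror class, the regions called in both +Myf6 HA lists only. There it was 377 bp and the median folds in +Myf6 replicates 1 and 2 were 4.88 and 4.96.

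Summit positions in the 2 +Myf6+F/R/C replicates lay about as close together at compound-only regions as at other sites. The median gap between summits was 83 bp (quartiles 31 and 194 bp), against 83 bp at sites with 1 +Myf6 peak and 72 bp (quartiles 25 and 202 bp) at shared sites. Within 100 bp were 55.4% of the gaps (interval 53.6 to 57.3%), against 54.8% (53.3 to 56.2%) at sites with 1 +Myf6 peak and 58.6% (57.5 to 59.7%) at shared sites. At equal replicate 1 pileup the order between compound-only regions and shared sites changed. The median gap was 99 bp, against 110 bp, with 6 to 9 fragments, 86.5 bp, against 109 bp, with 10 to 12, 84 bp, against 85 bp, with 13 to 15, and 70 bp, against 77 bp, with 16 to 20. With 21 to 30 fragments it was 64 bp, against 57 bp. Compound-only regions were narrower at equal pileup, with median widths of 381.5 bp, against 569 bp, at 6 to 9 fragments. At 21 to 30 they were 501 bp, against 698 bp. The width of a region limits the gap, and this was not corrected for. The median overlap was 93.0% of the shorter peak, against 98.8% at shared sites. Fold enrichment of one replicate went only loosely with that of the other. Over the 2763 regions Spearman's rho was 0.27, against 0.43 over shared sites, in libraries that share the genome's local background, and the narrower range of folds among compound-only regions was not corrected for.

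The weakest compound-only regions lay just over the threshold of the lists. The compound-only region with the lowest −log10 q in replicate 1 had 1.33, with 6 fragments and a fold of 3.14, and that in replicate 2 had 1.33, with 7 fragments and a fold of 3.10. The last region by mean rank, on chromosome 10 (13961541 to 13961919), had 8 and 6 fragments and folds of 3.35 and 3.23. Just outside the rule were 2294 +Myf6+F/R/C sites with a peak in +Myf6 replicate 1 only and 2201 with one in +Myf6 replicate 2 only. Those single +Myf6 peaks had median −log10 q of 4.55 and 4.08, and in 60 and 70 of them it was under 2.

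Whether a region seen in one +Myf6+F/R/C library was seen again in the other, or in a +Myf6 library, followed its pileup. Of the 33158 regions of the replicate 1 list without a control peak, 44.8% had a peak in +Myf6+F/R/C replicate 2, against 46.1% in +Myf6 replicate 1 and 42.5% in +Myf6 replicate 2. Among those with 12 to 14 fragments, a range that holds the median compound-only region, the shares were 42.6% in +Myf6+F/R/C replicate 2, and 43.7 and 40.6% in the +Myf6 lists. With 6 to 8 fragments they were 20.98%, against 20.93 and 22.60%, and with 30 to 81 fragments 91.9%, against 92.6 and 81.8%. Regions of this library were thus called again in the second library with compounds about as often as in the libraries without them.

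Starting from +Myf6+F/R/C replicate 2, the other library with compounds held more of the regions than either +Myf6 library. Of its 26988 regions, 55.1% were in +Myf6+F/R/C replicate 1, against 43.0% in +Myf6 replicate 1 and 48.7% in +Myf6 replicate 2. With 12 to 14 fragments the shares were 66.3%, against 50.9 and 56.4%. The list looked into here was that of the deepest library (61.9 fragments per 10 kb). In the opposite direction +Myf6+F/R/C replicate 2 (40.9) and +Myf6 replicate 1 (42.4) were close in depth. Here +Myf6 replicate 2, the shallowest induced HA library (30.6), held more of the regions than +Myf6 replicate 1. Its list is the longer of the 2 (34566 peaks, against 28012). Over all regions of +Myf6+F/R/C replicate 1 the order was the reverse, with 42.5% in +Myf6 replicate 2 and 46.1% in +Myf6 replicate 1. The part of depth in these shares was not tested. Of the 23739 regions of +Myf6 replicate 1, 64.4% were in +Myf6+F/R/C replicate 1 and 48.9% in replicate 2, and of the 29968 of +Myf6 replicate 2 the shares were 47.0 and 43.8%.

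**Figure D3:**
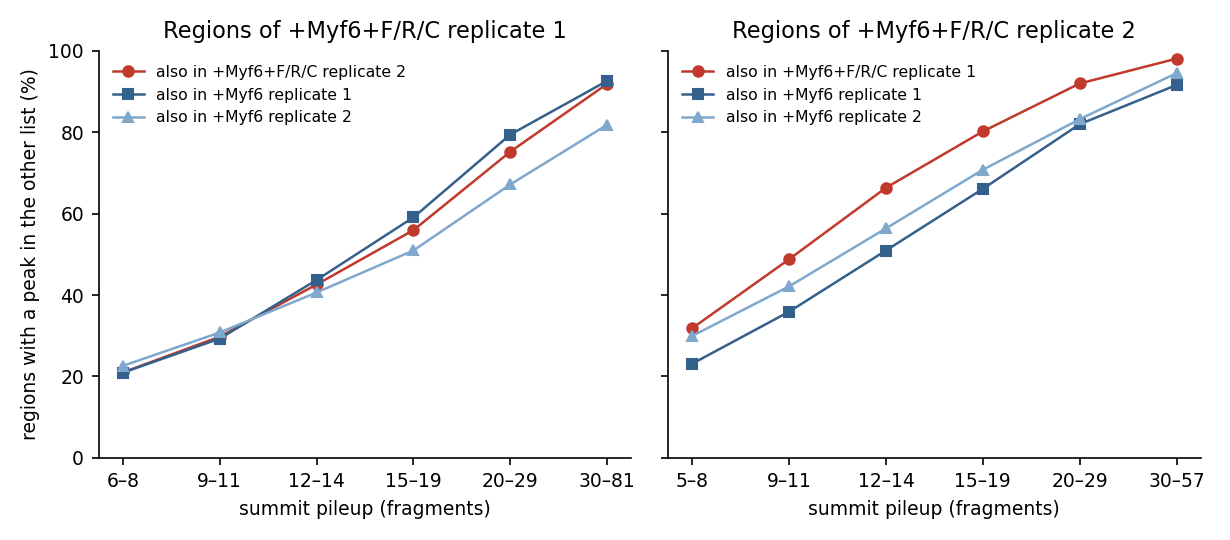
Share of the regions of +Myf6+F/R/C replicate 1 (left) and replicate 2 (right) with a peak in the other +Myf6+F/R/C list (red) and in the +Myf6 replicate 1 (dark blue) and replicate 2 (light blue) lists, by summit pileup in fragments. On the left the red line runs beside the blue ones, with 44.8% over all regions against 46.1 and 42.5%. On the right it lies above both at every pileup, with 55.1% against 43.0 and 48.7%.

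After plain scaling to the depth of the +Myf6 libraries, most compound-only regions still reached the lowest −log10 p of those lists. The values scaled are those on which the regions were chosen, and no peaks were called anew. Pileups and expected pileups were multiplied by the ratio of depths, 0.685 for replicate 1 and 0.747 for replicate 2, and a peak was kept if its −log10 p still reached the lowest in the +Myf6 list of its number. Of the compound-only regions, 2602 (94.2%) were kept in both replicates, against 98.8% of shared sites and 97.1% of all +Myf6+F/R/C sites. The median scaled pileups were 8.22 and 7.47 fragments, while the medians of the +Myf6 lists were 11 and 9 and the lowest called pileups 5 and 4. This scaling gives the expected pileup and holds none of the spread that counting so few fragments adds. How many of the regions would be called again in a further library of the same cells was not tested.

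H3K27me3, which took no part in choosing the regions, was found at a share of them close to that of all regions. In its single library 779 compound-only regions had a peak (28.2%, interval 26.5 to 29.9%), against 34.7% (33.7 to 35.8%) of shared sites and 26.2% of all merged regions. Regions called in +Myf6 cells only, by both HA lists, had 25.4% (23.3 to 27.6%), sites with 1 +Myf6 peak 31.4% (30.01 to 32.75%), and regions of only 1 +Myf6+F/R/C list 21.3% (20.7 to 21.9%). The interval of the compound-only regions lies below that of shared sites. The H3K27me3 library has no replicate, so no comparison over samples could be made. It is titled replicate 1, but its library name carries the prefix of the +Myf6+F/R/C replicate 2 libraries.

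The lower share held at equal pileup. Among regions with 6 to 9 fragments in replicate 1, 29.7% of compound-only regions had the mark, against 40.3% of shared sites. With 10 to 12 fragments the shares were 31.7%, against 41.0%, with 13 to 15 they were 31.7%, against 39.6%, and with 16 to 20 they were 20.1%, against 35.8%. With 21 to 30 fragments they were 16.2% of 191 compound-only regions (interval 11.3 to 22.2%), against 31.5% of 2003 shared sites (29.4 to 33.5%). Compound-only regions with 16 to 30 fragments carried the mark less often than those with fewer, and of the 100 with the best mean rank 18 did. Since shared sites are wider, the mark was also counted over the replicate 1 summit alone. There the shares were 22.0% of compound-only regions (20.4 to 23.6%), against 25% of shared sites (24.03 to 25.99%), a narrower gap than over whole regions. At equal pileup the summit shares lay further apart than these pooled ones. They were 24.5%, against 31.5%, with 6 to 9 fragments and 24.9%, against 31.9%, with 10 to 12. With 13 to 15 they were 25.3%, against 30.2%, and with 16 to 20 they were 13.5%, against 25.8%. In the range of 21 to 30 fragments they were 10.99% (6.94 to 16.3%), against 21.1% (19.3 to 23.0%).

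**Figure D4:**
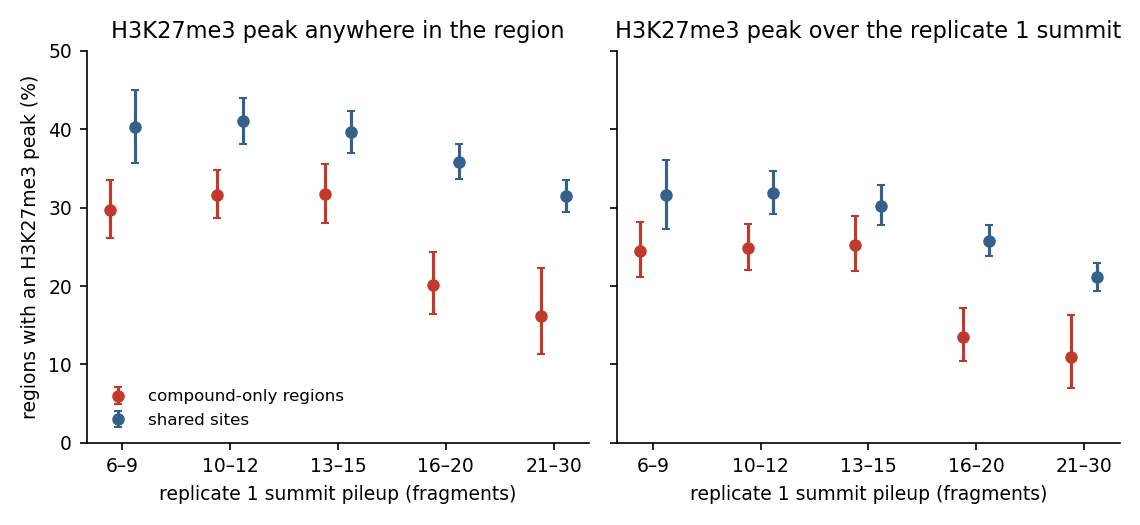
Share of compound-only regions (red) and shared sites (blue) with an H3K27me3 peak, anywhere in the region (left) and over the replicate 1 summit (right), by replicate 1 summit pileup in HA fragments; bars are exact 95% intervals. Compound-only regions lie below shared sites in every range, with 16.2% against 31.5% at 21 to 30 fragments on the left and 10.99% against 21.1% on the right.

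The overlap with H3K27me3 fell off within 2 kb of the regions. With every region moved by 500 bp to either side, 15.7 and 16.6% of compound-only regions met an H3K27me3 peak, against 24.5 and 24.4% of shared sites. Moved by 1 kb it was 8.32 and 8.36%, against 10.3 and 10.4%, and moved by 2 kb 3.94 and 3.26%, against 3.36 and 3.38%. The H3K27me3 peaks at compound-only regions had a median width of 540 bp and a median pileup of 17 fragments, and 34.3% of them were 1 kb or wider. At regions of the +Myf6 lists alone the mark's peaks, measured in +Myf6+F/R/C cells, were wider, with a median of 1031 bp and 44 fragments. Regions of only 1 +Myf6+F/R/C list had similar values, 1002.5 bp and 41 fragments, whereas shared sites had 521 bp and 13 fragments. Over all merged regions the medians were 771 bp and 27 fragments, and 42.7% of the mark's peaks were 1 kb or wider. Compound-only regions with and without the mark had close HA values, with median pileups of 12 and 10 fragments in both sets and median folds of 4.86 and 4.90 with the mark, against 4.96 and 4.93 without it.

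**Figure D5:**
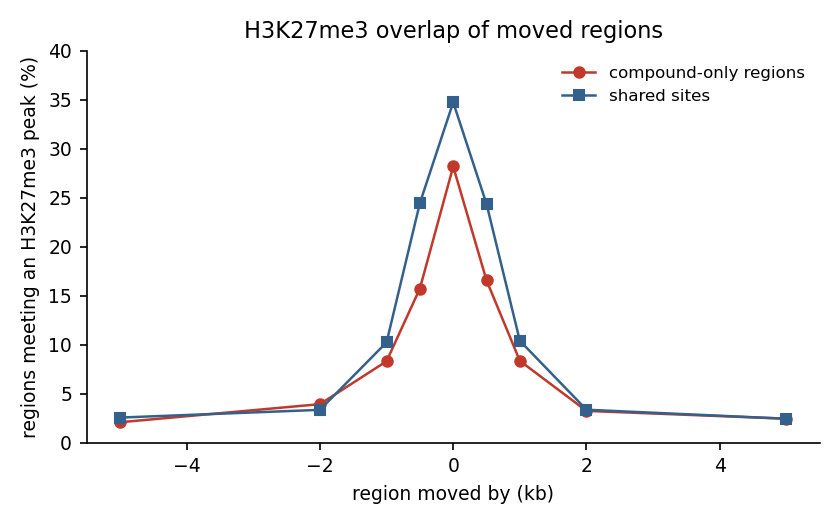
Share of compound-only regions (red) and shared sites (blue) that meet an H3K27me3 peak when every region is moved along the chromosome by the distance on the horizontal axis (kb). Compound-only regions have 28.2% in place and 8.32 and 8.36% when moved by 1 kb.

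Some compound-only regions carried strong H3K27me3. The highest fold of the mark, 13.2, was at the region on chromosome 7 (113619980 to 113620395), where the H3K27me3 summit had 29 fragments and lay 4 bp from the HA summit. HA pileups there were 14 and 9 fragments with folds of 6.83 and 5.87. The next ones, on chromosome 2 (32647146 to 32647673) and chromosome 3 (81839937 to 81840281), both had a fold of 13.01 and 53 fragments of H3K27me3. HA was weaker at these, with folds of 4.21 and 4.32 on chromosome 2 and 5.46 and 4.11 on chromosome 3.

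A +Myf6 HA peak lay within 1 kb, without touching, of 426 compound-only regions (15.4%, interval 14.1 to 16.8%), within 5 kb of 32.3% and within 10 kb of 51.6%, and the median distance was 9365 bp. Regions of the +Myf6 lists alone were set the same way to +Myf6+F/R/C peaks, with 16.5% (14.7 to 18.4%) within 1 kb and a median of 8239 bp. Regions of only 1 +Myf6+F/R/C list had 18.2% and 9063 bp to +Myf6 peaks. The share within 1 kb depends on the lists merged. It was 21.1% without +Myf6+F/R/C replicate 1, 17.8% without +Myf6+F/R/C replicate 2, 11.2% without +Myf6 replicate 1 and 8.77% without +Myf6 replicate 2. Shared sites, which are fewer than +Myf6 peaks, were farther off, at a median of 66029 bp, with 2.42% of compound-only regions within 1 kb of one. The other classes were similar, with 65529 bp and 2.52% for regions of only 1 +Myf6+F/R/C list and 60352 bp and 1.50% for regions of the +Myf6 lists alone.

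The median gap from a compound-only region to the next was 199567 bp, 562 (20.3%) had another within 50 kb, and no chain of neighbours at that spacing was longer than 4. The spacing of other classes, or of as many regions placed at random, was not computed, so these values do not say whether the regions cluster. The densest windows held 3 each. On chromosome 2 (104314848 to 104323641) they lay within 8794 bp, had folds of 2.82 to 5.26 in replicate 1 and 4.03 to 5.19 in replicate 2, and 2 of the 3 had an H3K27me3 peak. On chromosome 11 (95221361 to 95241490) the folds were 4.48 to 5.20 and 3.77 to 6.77, with a region of both +Myf6 lists in their midst, and again 2 of 3 had the mark. On chromosome 10 (97258891 to 97282452) the folds were 3.48 to 7.01 and 4.47 to 6.64, and none of the 3 had the mark. Each window held 1 further merged region, which had a +Myf6 peak.

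Across chromosomes the compound-only share of +Myf6+F/R/C sites ran between 15.8% on chromosome 5 (interval 13.5 to 18.5%) and 21.8% on chromosome 15 (18.77 to 25.03%), beside 18.6% in all. The share of compound-only regions with H3K27me3 ran between 19% of 100 regions on chromosome 18 and 39.6% of 144 on chromosome 7. It rests on 79 to 229 regions per chromosome, against 439 to 1199 sites for the compound-only share. Counting error is thus larger, and the widths of these ranges cannot be compared.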

How the data were processed

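Anti-HA, IgG and H3K27me3 CUT&RUN of 13 libraries was deposited as 1 narrow peak list per library, so replicates were not pooled. Per the submitters' processing notes, the tools were MACS2, deepTools and DiffBind and the build GRCm39; neither tool versions nor an aligner is given in the sources used here. A peak has a deposited fold, the ratio of summit pileup to local background with 1 added to each. It also has −log10 p and q, as deposited by the authors, with other deposited columns for the score and the summit position. No list held a −log10 q under 1.30, and each value describes a peak within its own list. No model was fitted and no p-value computed. 

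Summit pileups k and expected pileups λ were recovered from fold = (k + 1)/(λ + 1) and the Poisson tail, matching the deposited −log10 p within 0.002 for at least 99.9% of each list. Depth was the lowest λ times 10000 over the narrowest peak width. Python 3.11.15, pandas 2.3.3, numpy 2.4.6 and scipy 1.17.1 were used, and the recovery and merging were tested on simulated data.

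Regions named are the 10 with the best mean rank, the last by that rank, the 3 with the highest H3K27me3 fold and the 3 densest windows of 50 kb; the last by rank was added after its values were seen. The regions and these choices were made with earlier results of these data known. Genes, promoters, E-boxes and base composition were not analysed here, since the gene tables at hand are on another build, and no sequence is shown. Alternatives were thresholds, merging gaps, control filters, sex chromosomes, depth scaling and leaving out each library.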

Additional observations from a re-analysis of the deposited data

How the results depend on the processing

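No paired analysis was possible because no result here comes from a test. The number of compound-only regions, 2763, was within 1.5 times of that value under 17 of 23 alternatives. It was 512 at −log10 q of at least 5 in the +Myf6+F/R/C HA lists and, chosen after seeing the data, 1532 with summits within 100 bp. Leaving out 1 library gave 2763 to 13907, and 2763 to 2841 where a control library was left out. The mean of the 2 median folds, 4.94 with an SD of 0.026 between replicates, was 4.97 at −log10 q of at least 2 and 5.93 at 5 in those lists, 5.94 at 5 in every list, 5.00 with summits within 100 bp, and 4.62 to 5.05 without 1 library. The share with H3K27me3, 28.2%, was 25% at 5 in those lists, 20.03% at 5 in every list, 20.01% to 31.50% without 1 library, and, both chosen after seeing the data, 22.0% over the summit and 19.9% with H3K27me3 peaks of at least 5. The share near a +Myf6 peak, 15.4%, was 5.18% at 5 in every list, 9.42% and 5.08% with gaps of up to 200 and 500 bp merged (merging takes up the nearest peaks), 10.2% within 500 bp, 32.3% within 5 kb, 16.8% with summits within 100 bp, and 8.77% to 21.1% without 1 library. Without a +Myf6 library, distances were taken to the remaining +Myf6 list only. The threshold of 5 in every list also cut the +Myf6 and H3K27me3 lists. How much of the shifts comes from these changes, and the cause of the other shifts, was not tested. Planned settings for E-boxes, promoters, GC content and gene lists were not run. Overlap by at least 50% of the shorter peak (added after seeing the data), merging, control filter, sex chromosome and depth-scaling settings left the number between 2386 and 2915. Repeat calls differed with pileup: of the replicate 1 regions with 12 to 14 fragments, 42.6% were also in replicate 2, and of those with 30 to 81, 91.9%.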
